A study of Mus musculus and Oryctolagus cuniculus and Sus scrofa with 20 samples.

Results

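The 1081 tags described here are sequences that were read in the small RNA libraries of rabbit testis at every young age sampled and that have the size and first base of piRNAs. Small RNA libraries were sequenced from rabbit testes at postnatal days 10, 30, 60, 70, 80, 90, 110 and 180, with 1 library per age, in a series that also holds 10 mouse, 1 pig and 1 rat library. The pig and rat libraries came from adult wild type testes. The mouse libraries came from cultured spermatogonia stem cells and from germ cell stages that run from pre-leptotene spermatocytes to mature sperm. Mouse material was wild type except for stem cell cultures with a microRNA knocked out by TALEN or by CRISPR. All 8 rabbit libraries came from wild type, untreated male animals, and their total RNA had been mixed with an exogenous spike-in. No age has a replicate, so no test between ages was possible and the intervals given cover counting error only; the labels do not say how many animals gave each library. A member tag is 25 to 32 nt long, begins with T (the sequencing letter for uridine), has at least 1 read per 1000000 reads of its library (RPM) at each of days 10, 30, 60 and 70, has fewer than 10 reads in every mouse library and does not begin with a tRNA 5′ end.

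Of 3667186 distinct sequences found in the 4 young libraries, 8590 reached 1 RPM in each, 2737 of these were 25 to 32 nt long and 1558 of those, or 56.9%, began with T. The mouse limit removed 477 tags and left the 1081 members; the tRNA limit removed 0 further tags. Over all 20 files the lists hold 26479743 entries. The length, the first base and the level at days 10 to 70 were what the members were chosen by, so they are given as descriptions. The 3 members closest to the limit had 1.00 RPM in their lowest library, and the 3 closest tags left out had 0.978 RPM in theirs.

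PIWI-interacting RNAs (piRNAs) are germline small RNAs that bind PIWI proteins and guide the silencing of transposons, and mammalian testes make different populations of them before and during meiosis. Those made before meiosis come largely from transposons and genes, while the pachytene piRNAs that appear during meiosis come mostly from intergenic clusters and are very abundant. In the ping-pong cycle, a piRNA that begins with uridine directs a cut in a complementary transcript, and the cut end becomes the 5′ end of a partner piRNA. The partners then overlap by 10 nt at their 5′ ends, and a partner of a piRNA with uridine at its first base carries adenosine at its base 10.

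The 5 most abundant members that match another tag over these 10 nt follow, each with the most abundant of its matching tags, here called partners. They had 21, 9, 10, 21 and 50 partners. Only 10 bases were compared and no genome was used, so whether member and partner come from 1 place or from ping-pong was not tested. The capitals mark base 1 and base 10 of each tag, counted from its 5′ end, and the first 10 nt of member and partner are reverse complements.
Pair 1 member: TttctgatgAgaagtcagctgtgagtct
Pair 1 partner: TcatcagaaAttactacaaggacttgta
Pair 2 member: TgactaatgAtaagtggtaactttgccct
Pair 2 partner: TcattagtcAcattgaacgtgaatggcc
Pair 3 member: TtagagaacAttggagaaacccttcaa
Pair 3 partner: TgttctctaAtaatttgatggtgtcaggtc
Pair 4 member: TaatttcttTttcttgcctaatagctct
Pair 4 partner: AaagaaattAtgggatatgtactcttt
Pair 5 member: TtctacttaAtatgactggtttaattct
Pair 5 partner: TtaagtagaAcagacaaaaaaaaatact

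In pairs 1, 2, 3 and 5 the member has A at base 10 and the partner begins with T. In pair 4 the member has T at base 10 and the partner begins with A, as the pairing of the 10 bases requires. The pair 1 member had 4.37 RPM at day 10, 101 at day 30, 109 at day 60, 167 at day 70, 125 at day 80, 101 at day 90, 3.86 at day 110 and 4.06 at day 180. Its partner, which is itself a member, had 1.19, 44.0, 13.3, 33.9, 41.97, 11.1, 0.908 and 0.312 RPM at the same ages. Both were high from day 30 to day 90 and low at day 10 and at days 110 and 180. In whole testis, fewer cells that hold a tag and less of it per cell cannot be told apart.

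The pair 3 member had 20.2, 142, 90.2, 61.1, 521, 193, 22.8 and 28.4 RPM at days 10, 30, 60, 70, 80, 90, 110 and 180, and its highest library was that of day 80. Its partner was much rarer, at 0.529, 4.63, 4.65, 3.51, 7.82, 3.29, 0.378 and 0.520 RPM at those ages. The pair 5 member had 3.44 RPM at day 10 and 98.8 at day 30, stood at 190 at day 80 and had 4.99 at day 180; its partner had 0 reads at day 10 and 24.4 RPM at day 80. The pair 4 member had 9.40 RPM at day 10, 93.5 at day 30, 176 at day 80 and 6.14 at day 180.

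A partner was any tag of 25 to 32 nt with at least 1 RPM in 1 of the 4 young libraries whose first 10 nt were the reverse complement of the member's. There were 24345 possible partners. Of the 1081 members, 429 had one, a share of 39.7% (exact Clopper-Pearson 95% interval 36.8 to 42.7%). When the same 10 bases were looked for 1 to 10 nt further inside the possible partners, which corresponds to overlaps of 11 to 20 nt, 4.44 to 11.5% of members matched. The share at 10 nt was 5.16 times the mean of the other overlaps. At 10 nt, base 1 of the member, always T, pairs with base 10 of the partner. That base was A in 43.4% of possible partners, and 75.9% of possible partners began with T. Base shares further inside the possible partners were not compared, so the other overlaps are not a like-for-like background. The part of base shares in the ratio was not tested.

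**Figure D1:**
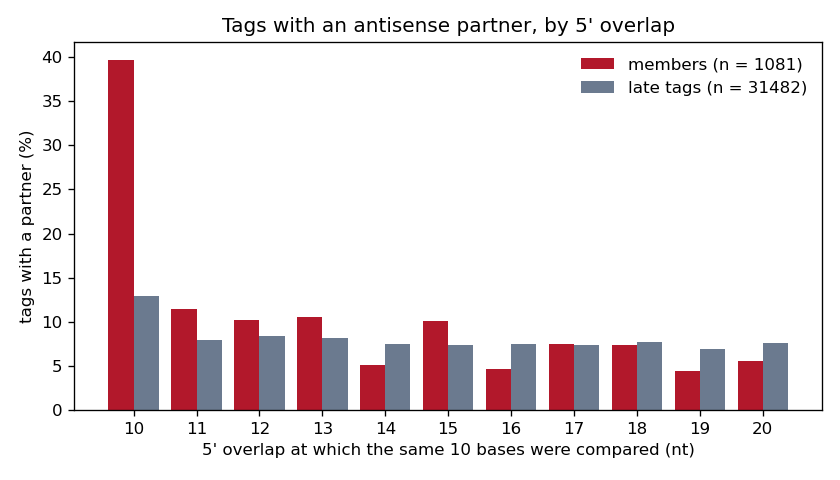
Share of tags with an antisense partner (y axis, percent of tags) by the 5′ overlap at which the same 10 bases were compared (x axis, nt), for the members (red) and the late tags (grey). The members stood at 39.7% at 10 nt and at 11.5% or lower at every other overlap, while the late tags stood at 13.0% and at 8.41% or lower.

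For comparison, 2 further sets of tags were described in the same way. The late tags have the members' lengths and first base and passed the same mouse and tRNA limits. They reached 1 RPM at days 110 and 180 and had 0 reads at days 10 to 70. The last limit left out most abundant tags. Among 239 T-first tags of these lengths with at least 100 RPM at days 110 and 180 and under 10 reads in every mouse library, 231 had a read at day 60. There were 31482 late tags. Of these, 13.0% (12.6 to 13.3%) had a partner among the tags of days 110 and 180, against 6.91 to 8.41% at the other overlaps, and they had 99149 possible partners, more than the members had. The other set held the 554 tags that passed the same limits as the members on length, level, mouse reads and tRNA ends but began with A, C or G. Of these 554, 13.7% (10.96 to 16.9%) had a partner, against 2.17 to 6.86% at the other overlaps. The share at 10 nt was 3.76 times the mean of the other overlaps in this set and 1.70 times in the late tags.

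The 429 paired members had 1360 distinct partner tags, of which 81.5% began with T and 10.7% with A. Of all possible partners, 75.9% began with T. A paired member had a median of 4 partners, 94 had a single one and the most was 51, so partners are not independent of each other. For 127 of the 429, the most abundant partner exceeded the member in its mean level over days 10 to 70. There were 125 members whose partner was also a member.

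Adenosine was found at base 10 of 483 members, or 44.7% (41.7 to 47.7%). At bases 2 to 9 and 11 to 25, A made up 24.4 to 37.2% of member tags, and its median share over those positions was 26.7%. At base 10, T made up 26.2%, G 18.9% and C 10.3%. The share with A at base 10 was 28.5% (28.03 to 29.03%) in the late tags and 31.8% (27.9 to 35.8%) in the tags with another first base. In the late tags A was more frequent at base 5, at 38.8%, than at base 10.

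**Figure D2:**
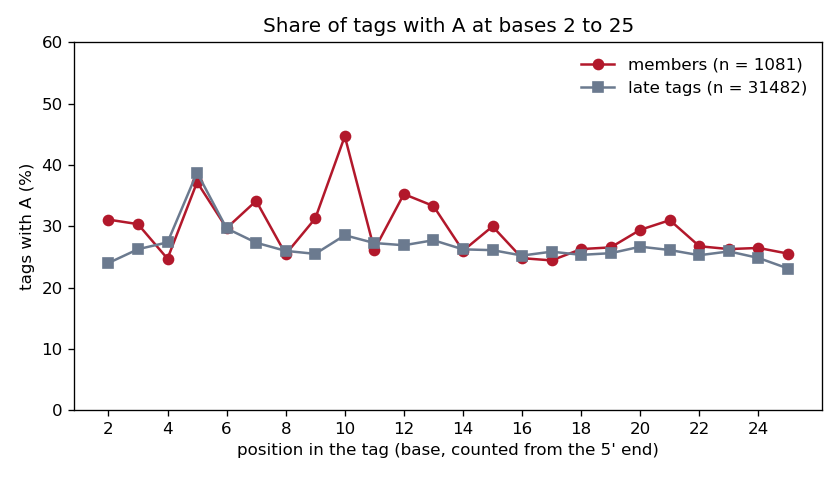
Share of tags with A (y axis, percent) at bases 2 to 25 from the 5′ end (x axis), for the members (red circles) and the late tags (grey squares). The members peak at base 10 with 44.7%, where the late tags stand at 28.5%; both sets are high at base 5.

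The remaining tags that began with T in the young libraries also held many with A at base 10. Among all T-first tags of 25 to 32 nt with 1 RPM or more in a library, members left out, the share was 33.6% at day 10, 44.7% at day 30, 43.0% at day 60, 41.8% at day 70, 44.6% at day 80, 38.8% at day 90, 29.2% at day 110 and 28.4% at day 180. The share was high from day 30 to day 80 and lowest in the oldest libraries, and no test between these libraries was possible.

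Base 10 and the partner are linked by construction, since a partner that begins with T requires A at base 10 of the member. Of the 483 members with A at base 10, 59.6% (55.1 to 64.0%) had a partner, against 23.6% (20.2 to 27.2%) of the 598 members with another base there. In both groups the share was higher at 10 nt than at any overlap of 11 to 20 nt, where it reached at most 15.7% with A at base 10 and 8.86% without.

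The most common length of the members was 28 nt, with 315 tags or 29.1%. Tags of 29 nt made up 21.4%, those of 27 nt 19.8%, those of 30 nt 9.07% and those of 26 nt 8.88%, and 25, 31 and 32 nt held 5.55, 4.26 and 1.94%. Members of 29 to 32 nt were 36.6% (33.8 to 39.6%) of the set. In the late tags that class was 63.3% (62.7 to 63.8%), and the most common lengths were 30 nt, with 25.2%, and 29 nt, with 23.7%. PIWI proteins of mammals are known to bind piRNAs of different lengths, with MILI in mouse holding shorter ones than MIWI.

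**Figure D3:**
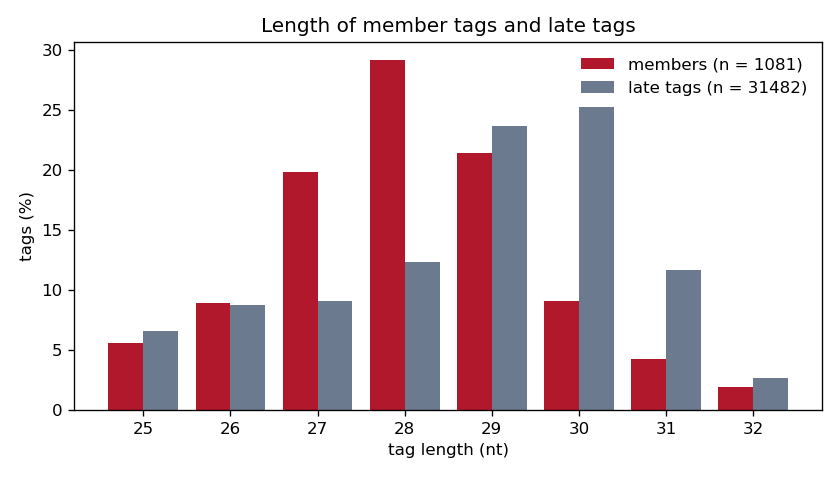
Length (x axis, nt) of the members (red) and the late tags (grey), as a percentage of the tags of each set (y axis). The members have their highest bar at 28 nt with 29.1%, and the late tags at 30 nt with 25.2%.

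A base 10 of A was found in 42.5 to 50.0% of the members at each length from 26 to 32 nt and in 28.3% of the 60 members of 25 nt. A partner was found for 43.5% of the members of 28 nt and 44.2% of those of 29 nt, for 38.5, 41.6 and 39.8% of those of 26, 27 and 30 nt, and for 13.3% of those of 25 nt, 28.3% of those of 31 nt and 19.05% of those of 32 nt. The lengths outside the 25 to 32 nt window were not fixed by the rule. Of all reads that began with the first 20 nt of any member, 38.7 to 61.4% were 25 to 32 nt long at days 10 to 90 and 34.1 to 57.8% were 20 to 24 nt, and 24 nt was the most common length in each of these libraries. The same was counted for members that matched none of the RNAs searched, a class given next and set after the tags had been seen. Of all reads that began with the first 20 nt of these members, 86.0 to 90.1% were 25 to 32 nt long at days 10 to 90. A further 3.61 to 7.26% were 20 to 24 nt and 6.27 to 9.03% were 33 to 41 nt. The most common length was 28 nt in each of these 6 libraries. In the same libraries of days 10 to 70, reads that began 1 nt downstream of those members' 5′ ends were 24.0% of the reads at the end itself, reads that began 1 nt upstream were 15.0%, and reads that began 5 nt away on either side were 6.18 to 6.65%.

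The members were compared with other known RNAs to check the name piRNA-sized, because size and first base do not exclude fragments. No rabbit annotation was used here, so 6112 mouse small non-coding transcripts of GENCODE vM21 were searched without gaps. With up to 2 mismatches 34 members matched, among them 9 to snoRNAs, 8 to miRNAs, 7 to snRNAs and 5 to the reverse complement of rRNA. With up to 4 mismatches the number was 54. In addition, 22 members lay within 2 edits of 1 of 2 very abundant tags of 24 nt, 6 held a stretch of 5.8S rRNA, 2 were near a tRNA 5′ prefix and 2 held the end of the 5′ sequencing adapter.

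Counting each tag once, 84 members, or 7.77%, fell into 1 of these classes and carried 8.75% of the mean summed level over days 10 to 70. None of these 84 had a 10-nt partner and 18 had A at base 10. The other 997 members had no such match; 46.6% (43.5 to 49.8%) of them had A at base 10 and 43.0% (39.9 to 46.2%) had a partner. The classes were defined after the tags had been seen, and no mRNA, repeat or rabbit annotation was searched. The 52 members in the class of mouse non-coding RNAs summed to 704, 509, 554, 702, 684, 722, 194 and 155 RPM at days 10, 30, 60, 70, 80, 90, 110 and 180.

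The 2 tags of 24 nt together had 8480 RPM at day 10, 10738 at day 90, 6374 at day 110 and 4750 at day 180, and 0 reads in every mouse, pig and rat library. The sequence of the spike-in added to the rabbit RNA is not given in the sources used here, and whether these tags are that spike-in was not tested. The 4 bases CTGA, which form the D box near the 3′ end of C/D snoRNAs, stood within the last 8 nt of 97 members, or 8.97% (7.34 to 10.8%), against 4.31% of late tags and 33.03% of the tags with another first base. This is a description of letters only.

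Many members were versions of the same sequence. By their first 20 nt they formed 762 families, of which 555 held a single tag and the largest held 6. By shared stretches of 18 nt on the same strand they formed 590 groups, the largest with 18 tags, and the 10 largest with 100 tags in all. Such members share their source and are not independent. With 1 tag per family the share with A at base 10 was 44.8%, and the share with a partner was 35.0%.

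Antisense matches were longer than 10 nt for some members. The reverse complement of an 18-nt stretch of 275 members, or 25.4%, was found in a tag with 1 RPM or more in a young library; the same was true of 2.26% of late tags among the tags of days 110 and 180. Of those 275 members, 60.7% had A at base 10. For 39 members the antisense stretch lay in another member.

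Sequence variants of the members were common as well. Over the first 25 nt, 188 of the 997 members with no match to the RNAs searched, or 18.9%, differed by 2 to 4 bases from another of the 997. Among the 31482 late tags, a set many times larger, 3.19% had such a variant in their own set. Of the 188, 61.2% had a 10-nt partner and 59.0% had A at base 10, and 38.8% of the other members in the 997 had a partner. Repeated elements leave such related copies, but the rabbit genome was not used here and the origin of these tags was not tested.

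The group with the most distinct beginnings, 8 among 13 members, shows how the variants differ. Changes are counted from the 5′ end, with the base of the first tag before the position and the base of the variant after it.
Variant 1: TgactaatgAtaagtggtaactttgccct
Variant 2: TgactattgAtacgtagtgactttgccc
Variant 3: TgactattgAtacatagtgactttgccc
Variant 4: TgactaatgAaaagtggtaactttgccct
Variant 2 differs from variant 1 by A7T, A13C, G16A and A19G, and variant 4 by T11A. All 4 keep T at base 1 and A at base 10. Variant 1, which is also the pair 2 member, had 37.3, 170, 85.5, 88.2, 355, 168, 13.7 and 14.4 RPM at days 10, 30, 60, 70, 80, 90, 110 and 180. Variant 2 had 2.65, 44.3, 32.5, 41.9, 136, 107, 11.4 and 9.36 at the same ages, and variant 4 had 17.6, 30.3, 5.87, 6.89, 35.1, 20.3, 0.832 and 0.832. All 3 had their highest level at day 80, but at day 10 variant 4 was above its own level at days 60 and 70, whereas variant 2 was lower at day 10 than at any of days 30 to 180.

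The level of single members over days 10 to 70, which the rule used, ran from 1.12 to 206 RPM, with a median of 3.64, and 698 members had a mean under 5. The 100 highest members carried 49.7% of the summed level. The most abundant tags of the 10 highest families include tags with both A at base 10 and a partner and tags with neither.
Family 1: TaccgaacgGaatgctctgcactttt
Family 2: TgaccatgaAaacacatgaacacctgaga
Family 3: TggagtttcTtgatctctttgtagattc
Family 4: TgagttccaAtagtctcttagtagagttc
Family 5: TcactgtgaCtgaaaggtattttctgacc
Family 6 leads with the pair 1 member, family 9 with the pair 2 member and family 10 with the pair 3 member. Family 1 had 291, 255, 218, 59.6, 63.6, 86.1, 34.7 and 130 RPM at days 10, 30, 60, 70, 80, 90, 110 and 180, and it had G at base 10 and no partner. Family 2 had 203, 164, 195, 245, 233, 256, 72.9 and 71.3; it lies within 4 mismatches of a mouse snoRNA and had no partner either.

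Family 3 had 7.15 RPM at day 10, 87.6 at day 30, 134 at day 60, 220 at day 70, 696 at day 80, 79.1 at day 90, 10.4 at day 110 and 4.89 at day 180, with T at base 10 and no partner. Family 4 had 15.7, 61.4, 101, 82.8, 367, 131, 26.6 and 15.6 at the same ages, with A at base 10 and a partner. Family 8 begins 2 nt before family 4 and shares 28 nt with it. Families 3 and 4 had a sharp maximum at day 80, whereas family 5, at 70.3, 160, 200, 105, 289, 308, 62.2 and 76.2, was about as high at day 90 as at day 80.

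Summed over all 1081 members, the level was 6065 RPM at day 10, 10055 at day 30, 9102 at day 60, 8711 at day 70, 17545 at day 80, 12818 at day 90, 17828 at day 110 and 16901 at day 180. The median member took another course, with 2.51, 4.25, 3.42, 2.97, 4.81, 4.56, 0.832 and 0.624 RPM at those ages. The number of members without a read was 0 at days 10 to 70 by the rule, 8 at day 80, 3 at day 90, 50 at day 110 and 146 at day 180. The sum stayed high at days 110 and 180 while the median member was lower there, because 11 members made up most of the reads.

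These 11 tags, singled out after their values were seen as members with at least 100 RPM at days 110 and 180 that stood at least 4-fold above their mean of days 10 to 70 at both, carried 86.3% of the member reads at day 110 and 85.3% at day 180. They were 0.0726 to 0.622% of the member reads at days 10 to 90. The 3 highest at day 180 are shown.
Late-high 1: TcccagcatCttggacttcaaagctagagc
Late-high 2: TgcacgtttCcggaaccttcagcaccgagc
Late-high 3: TttccaattTtaagtctctgtgaacaatgt
Late-high 1 had 4.90, 1.88, 6.24, 3.38, 1.56, 2.41, 1858 and 2333 RPM at days 10, 30, 60, 70, 80, 90, 110 and 180. Late-high 2 had 3.31, 1.13, 5.99, 2.16, 1.20, 6.84, 1658 and 2127, and late-high 3 had 4.37, 2.50, 9.17, 3.65, 2.16, 2.15, 4482 and 1975. None of the 3 had A at base 10, and 6 of the 11 did; 1 of the 11 had a 10-nt partner.

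In the younger libraries each of the 11 tags was a small share of its late level. As a share of its own mean level at days 110 and 180, the median of the 11 tags was 0.180% at day 10, 0.102% at day 30, 0.317% at day 60, 0.130% at day 70, 0.0853% at day 80 and 0.193% at day 90. At day 10 quartiles of the 11 tags were 0.161 and 0.242%. Over all 239 T-first tags of 25 to 32 nt with at least 100 RPM at days 110 and 180 and under 10 reads in every mouse library, the medians were 0.199, 0.0857, 0.321, 0.113, 0.0926 and 0.321% at those ages. At day 10, 223 of these 239 tags had a read, and at day 60, 231 had one. Whether reads of the older libraries entered the younger ones was not tested. Without the 11 tags, 44.6% of the other 1070 members had A at base 10 and 428 had a partner.

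Without the 11 tags, the summed level of the other 1070 members was 6037 RPM at day 10, 10039 at day 30, 9045 at day 60, 8689 at day 70, 17532 at day 80, 12777 at day 90, 2448 at day 110 and 2488 at day 180. The highest sum was at day 80 and the lowest 2 at days 110 and 180. The log2 change of the summed level at day 180 over the mean of days 10 to 70 was 0.99 with the 11 tags and -1.76 without them.

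**Figure D4:**
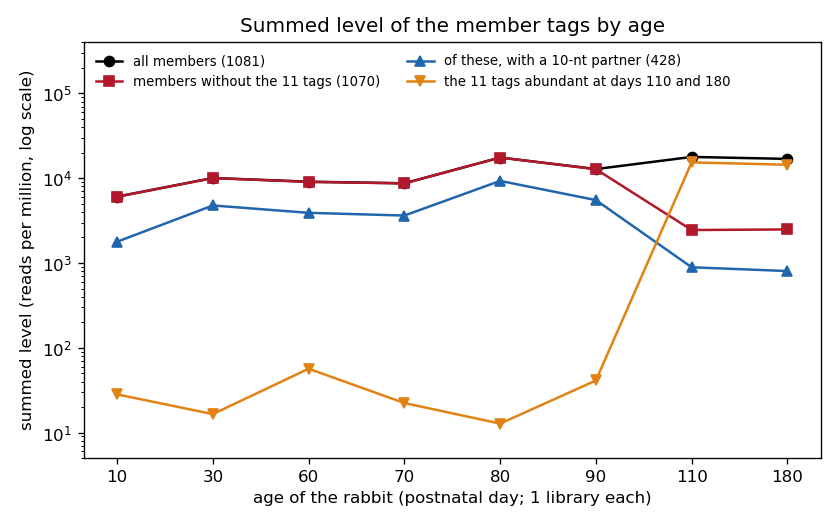
Summed level (y axis, RPM, log scale) of all members (black), of the members without the 11 tags (red), of those among the latter with a 10-nt partner (blue) and of the 11 tags (orange), by postnatal day (x axis, 1 library per age). At day 180 the 11 tags stand at 14413 and the other members at 2488, while at day 80 the 11 tags stand at 12.7 and the others at 17532.

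With the 11 tags left out, the summed level of the members with a partner and that of the members without were both highest at day 80 and lower at days 110 and 180 than at any younger age. The 428 paired members summed to 1782, 4771, 3906, 3628, 9296, 5522, 890 and 803 RPM at days 10, 30, 60, 70, 80, 90, 110 and 180. The 642 members with no partner summed to 4255, 5268, 5139, 5061, 8237, 7255, 1558 and 1685. The 11 tags had been singled out by high levels at days 110 and 180, so leaving them out lowers the sums there by construction. With the 11 tags kept, members without a partner summed to 8249 RPM at day 80, 15730 at day 110 and 15051 at day 180. Those with a partner then summed to 9297, 2099 and 1850 RPM. At day 10 the paired members had the smaller sum, and at day 80 the larger one. Since the partners had been found in the libraries of days 10 to 70, the partner itself is no independent measure at those ages.

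The 1235 partner tags that were not members had 543 RPM at day 10, 2679 at day 30, 1820 at day 60, 1761 at day 70, 3982 at day 80, 2372 at day 90, 817 at day 110 and 727 at day 180. They too were highest at day 80. The members with A at base 10 made up 34.7% of member reads at day 10, 47.3% at day 30, 44.2% at day 60 and 46.1% at day 70. Their share was 50.9% at day 80, 44.1% at day 90, 42.1% at day 110 and 46.2% at day 180. Without the 11 tags the share was 38.1% at day 110 and 31.1% at day 180.

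For single tags, a change was counted at 4-fold between an older library and the mean of days 10 to 70, with counts under 3 set to 3. All 8590 tags that reached 1 RPM in each of the 4 young libraries, of any length and first base, served as the background. The 1081 members are among them, so the background is not a set of other tags. Of the 119 background tags at least 4-fold higher at day 80, 80 were members. Of the 38 at least 4-fold higher at both day 80 and day 90, 23 were members. At day 80, 80 members, or 7.40%, were at least 4-fold higher and 64, or 5.92%, at least 4-fold lower, against 1.39 and 4.11% of the background. At day 90, 67 members, or 6.20%, were higher and 44, or 4.07%, were lower, against 1.85 and 5.51% of the background. There were 23 members, or 2.13%, at least 4-fold higher at both ages, against 0.442% of the background.

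At day 110, 646 members, or 59.8%, were at least 4-fold lower and 15, or 1.39%, at least 4-fold higher, against 45.7 and 0.931% of the background. At day 180, 704 members, or 65.1%, were lower and 16, or 1.48%, higher, against 58.3 and 0.908% of the background. Of these 16, 11 were the late-high tags and 5 were other members. There were 562 members, or 52.0%, at least 4-fold lower at both ages, against 40.9% of the background.

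On this scale the median log2 change at day 180 was -2.47 for the members and -2.25 for the background, at day 110 it was -2.39 and -1.85, at day 90 0.20 and -0.37, and at day 80 0.26 and -0.24. Reads of 25 to 32 nt made up 22.9 to 24.6% of the libraries at days 10 to 70, 30.7% at day 80, 39.0% at day 90, 71.1% at day 110 and 76.8% at day 180, and each level is a share of its library.

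**Figure D5:**
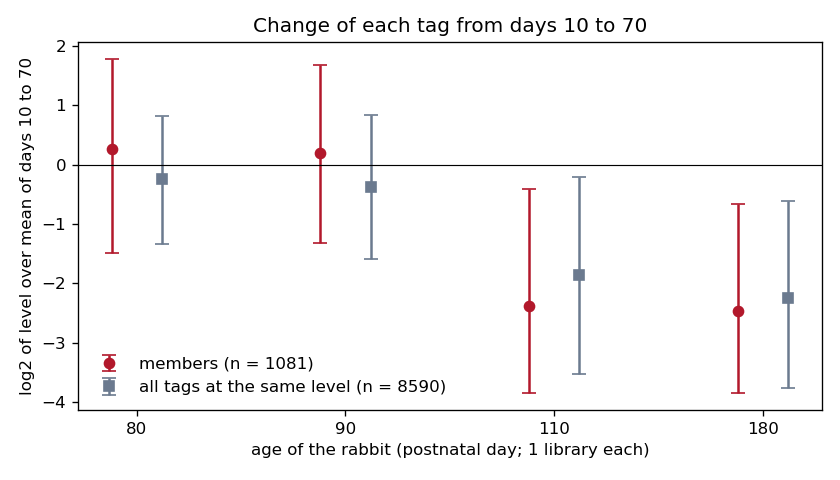
Log2 of the level at days 80, 90, 110 and 180 over the mean of days 10 to 70 (y axis) by postnatal day (x axis, 1 library per age), for the members (red circles) and for all tags with 1 RPM in each young library (grey squares). Points are medians and bars run from the 10th to the 90th percentile of tags; the member medians are 0.26, 0.20, -2.39 and -2.47, and those of all tags -0.24, -0.37, -1.85 and -2.25.

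Other scales moved both sets together. Per 1000000 reads of 20 to 24 nt, the class that holds most miRNAs, the median log2 change at day 180 was -0.48 for the members and -0.25 for the background, and 86 members, or 7.96%, were at least 4-fold lower and 53, or 4.90%, at least 4-fold higher, against 7.26 and 4.1% of the background. Per 1000000 reads of 25 to 32 nt, the medians were -4.15 and -3.93 and 1003 members, or 92.8%, were at least 4-fold lower and 11, or 1.02%, at least 4-fold higher, against 93.4 and 0.431% of the background.

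Of the 383 members with a mean of at least 5 RPM over days 10 to 70, the 5 with the lowest and the 5 with the highest level at day 180 relative to that mean were named by rule. The 5 lowest all had A at base 10, and 4 of the 5 had a partner. Over all members the difference was smaller. At day 180, 70.2% of the 483 members with A at base 10 and 61.0% of the other 598 were at least 4-fold lower. Their median log2 changes were -2.65 and -2.33. The sequences of 3 of the 5 lowest follow.
Lowest 1: TcatcagaaAttactacaaggacttgta
Lowest 2: TtctgttccAttggtctatccatctgttt
Lowest 3: TcttgtacaAcaaaaacaaagccggaggc
The first of these is the partner in pair 1. Lowest 2 had 2.91, 20.9, 25.7, 23.1, 24.9, 9.62, 0.983 and 0.312 RPM at days 10, 30, 60, 70, 80, 90, 110 and 180, with 3 reads at day 180. Lowest 3 had 2.78, 23.8, 17.1, 15.7, 39.7, 11.9, 0.378 and 0.208 RPM, with 2 reads at day 180. Lowest 2 was high from day 30 to day 80 and lowest 3 was highest at day 80.

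The differences among the 5 highest were smaller.
Highest 1: TcctgttgaCtaacaagggcctggtacct
Highest 3: TgaacaagaCtgagaatccgccttgttggc
Highest 1 had 7.81, 4.88, 5.75, 7.43, 4.33, 6.96, 28.7 and 41.3 RPM at days 10, 30, 60, 70, 80, 90, 110 and 180, a log2 change of 2.67 at day 180, and lay within a narrow range to day 90. The tag named second, which is the same without its last base, had a log2 change of 1.76. Highest 3 had 11.9, 23.5, 24.2, 29.6, 66.0, 52.2, 47.96 and 53.5 RPM, and so was already higher at day 80; it has C at base 10 and a partner. The fourth and the fifth had log2 changes of 1.16 and 0.79.

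Each member had its highest level in 1 of the 8 libraries. That library was day 80 for 303 members, day 90 for 249, day 30 for 181, day 10 for 168, day 70 for 90, day 60 for 62, day 180 for 16 and day 110 for 12. Day 10 was the lowest of the 4 young libraries for 514 members, or 47.5%. Reads were found for 919 members in all 8 libraries. These counts were not made for the 8590 background tags, so they describe the members only and show no difference from other tags.

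The members were nearly absent from the other species. In no mouse, pig or rat library was a read found for 1038 members, or 96.0%. The mouse limit had been part of the choice, and the pig and rat libraries had not. That limit had removed 477 tags read in mouse, and their pig and rat reads were not compared. The low pig and rat shares therefore cannot be separated from the mouse limit. The rat library held 7 members, or 0.648%, with 15 reads. The pig library held 13 members, or 1.20%, with 3973 reads, of which 3634 belonged to the 2 tags with the 5′ adapter. There, 3 members with no match to the RNAs searched had 234 reads. The late tags, which had passed the same mouse limit, were rarer still. Of these, 0.0381% had a read in the pig library and 0.0349% in the rat library.

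The rabbit libraries hold 7400969 to 13218352 reads, and 3 reads correspond to 0.227 to 0.405 RPM. MicroRNA markers of cell types moved with age in the same libraries; 8 of the 11 listed had a mature mouse sequence in the RefSeq table used. Of the markers of germ cells in meiosis and later, miR-34b-5p had 11.9 and 13.7 RPM at days 110 and 180, against at most 0.135 at days 10 to 70, and miR-449a-5p had 702 and 673, against 11.5 to 16.3. The Sertoli cell marker miR-202-5p had 1276 and 876 RPM at days 110 and 180, against 2466 to 10251 at days 10 to 70. Of the stromal markers, miR-199a-3p had 634 and 342, against 3532 to 9770, and miR-214-3p had 17.4 and 10.3, against 113 to 353. The blood marker miR-451a had 39.04 and 36.9, against 42.97 to 107. Of the epithelial markers, miR-200a-3p had 384 and 431, against 90.5 to 131, and miR-200c-3p had 53.6 and 71.3, against 7.01 to 23.6. The part of this change of tissue makeup in the members' levels was not tested.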

How the data were processed

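Small RNA libraries were made from total RNA by an Illumina protocol, per the labels' protocols. The authors deposited 1 list per library, which pairs every distinct sequence with its raw read count; the trimming steps are not given in the sources used here. Bowtie and the rabbit build OryCun2.0 appear among the submitters' processing notes, without roles. No rabbit genome was used, so tags have no genome position here. RPM values were computed from these counts in Python 3.11 with numpy 2.4.6 and scipy 1.17.1. The tRNA limit used 9 prefixes of 18 nt. Pairs compare 10 bases exactly. Counting intervals are 95% Clopper-Pearson. Pairing and change counts were tested on simulated data. Named were the 10 highest families, the 5 lowest and 5 highest members at day 180 relative to days 10 to 70 among those with a mean of at least 5 RPM, the 5 highest paired members and the 3 tags on either side of the limit. The members and lists were chosen with earlier results of these data known. Marker miRNAs are reads of 18 to 26 nt that begin with the first 18 nt of the RefSeq mouse sequence (GRCm38). Alternatives changed the level, mouse and tRNA limits, the libraries used for the choice, the unit counted, the scale, the fold and the partners.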

Additional observations from a re-analysis of the deposited data

How the results depend on the processing

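The number of members was 2677 at 0.5 RPM, 398 at 2 RPM and 2873 when the day 10 library took no part in the choice, and stayed within 1.5 times 1081 under the other alternatives. The share with A at base 10 was 40.95% at 2 RPM, 37.3% with no mouse limit and 50.2% without day 10 in the choice, which also gave 42.2% of 29 to 32 nt. The share with a partner was 35.3% at 0.5 RPM, 29.4% with no mouse limit, 46.4% without day 10, 35.04% with 1 tag per family, 18.6% with partners of at least 5 RPM, 11.6% with members alone as partners and 43.03% without tags that match another RNA.

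The log2 change of the summed level at day 180 was 0.99. It was 1.38 at 0.5 RPM, -0.60 at 2 RPM, 1.03 with a mouse limit of 1 read, 0.70 with none, and 0.47, 1.35, 0.96 and 1.06 when the library of day 10, 30, 60 or 70 was left out of the choice. It was -0.68 per 1000000 reads of 25 to 32 nt and 2.99 per 1000000 reads of 20 to 24 nt. The settings that follow were added after the data had been seen. The change was 1.11 without tags that match another RNA and -1.76 without the 11 late-high tags; per read of the 24-nt tags it was 1.97. Without the 11 tags it was -3.44 per 1000000 reads of 25 to 32 nt, 0.23 per 1000000 reads of 20 to 24 nt and -0.79 per read of the 24-nt tags. The direction of the sum thus depends on the 11 tags and on the scale.

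Members at least 4-fold lower at day 180 numbered 1356 at 0.5 RPM, 247 at 2 RPM, 1916 without day 10 in the choice, 86 per 1000000 reads of 20 to 24 nt and 352 per read of the 24-nt tags, against 704. On these last 2 scales they were 7.96 and 32.6% of the members, against 7.26 and 26.7% of all tags. Members at least 4-fold higher numbered 51 at 0.5 RPM, 2 at 2 RPM, 39 with no mouse limit, 29 without day 10, 53 per 1000000 reads of 20 to 24 nt, 28 at 2-fold, 28 per read of the 24-nt tags and 5 without the 11 tags, against 16. Per 1000000 reads of 20 to 24 nt and per read of the 24-nt tags the members higher were 4.90 and 2.59%, against 4.10 and 1.63% of all tags, and at 2-fold 2.59 and 1.64%. The looser tRNA search removed 2 members. Where no value shows it, the cause was not tested. At these depths a tag at 1 RPM rests on 8 to 14 reads, so single low tags are imprecise.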
